A study of Rattus norvegicus with 17 samples.

Results

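Expression of 32 listed genes of cholesterol synthesis, sterol sensing, uptake, storage and efflux was examined in cultured ventricular myocytes of newborn rats. The genes were chosen by name, and each was represented by the probe set with 1 gene symbol that had the highest mean over all arrays. Of the 32 genes, 31 were measured, out of 14506 named genes and 29214 probe sets in all, and the expression of Hmgcs1 was not analysed here. Ventricular myocytes of Sprague-Dawley rats, given as 5 days old in culture, were treated with uremic plasma taken before or after nocturnal hemodialysis (NHD), with control plasma, or with phenylephrine. Uremic plasma comes from people whose kidneys have failed, and NHD is dialysis given through the night. The uremic plasma was added at 10%, while the share of control plasma and the medium of the phenylephrine cultures are not stated in the labels. Phenylephrine activates alpha-adrenergic receptors and is used to induce growth of myocytes in culture. The arrays numbered 6 for plasma before NHD, 6 for plasma after NHD, 3 for control plasma and 2 for phenylephrine. Titles number the samples as biological replicates but name neither cultures nor plasma donors, so p-values reflect only the scatter of these samples, which may be partly technical.

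Cells make cholesterol from acetyl-CoA by way of mevalonate, isoprenoid units, squalene and lanosterol. The transcription factor SREBP2, the product of Srebf2, turns on the enzymes of this route. Scap carries SREBP2 from the endoplasmic reticulum to the Golgi apparatus, where the proteases of Mbtps1 and Mbtps2 release it, and Insig proteins hold Scap back when sterols are plentiful. Excess cholesterol is esterified by Soat1 or exported by the transporters Abca1 and Abcg1, whose genes are targets of the oxysterol-sensing liver X receptors. In the heart muscle cell the pathway supplies membrane cholesterol and isoprenoids.

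Upstream sequences are shown for Mvk, Nsdhl, Sc5d and Srebf2, the 4 genes that were higher after NHD than with control plasma and have a promoter entry. Each is the 180 bases before the annotated start of the gene (RefSeq, assembly GRCr8), written 5′ to 3′ on the strand of the gene. Capitals mark the letters CCAAT or its reverse complement ATTGG, the box bound by NF-Y, a factor known to act together with SREBP2.
Mvk, chr12:47819504-47819683, minus strand: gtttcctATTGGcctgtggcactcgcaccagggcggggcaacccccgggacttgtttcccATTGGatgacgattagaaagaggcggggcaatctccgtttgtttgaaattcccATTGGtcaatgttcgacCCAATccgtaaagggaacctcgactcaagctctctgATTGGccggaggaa
Nsdhl, chrX:155817180-155817359, plus strand: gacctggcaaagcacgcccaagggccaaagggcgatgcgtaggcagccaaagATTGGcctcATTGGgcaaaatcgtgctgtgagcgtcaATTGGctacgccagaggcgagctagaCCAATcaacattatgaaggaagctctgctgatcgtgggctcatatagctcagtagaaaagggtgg
Sc5d, chr8:51538278-51538457, minus strand: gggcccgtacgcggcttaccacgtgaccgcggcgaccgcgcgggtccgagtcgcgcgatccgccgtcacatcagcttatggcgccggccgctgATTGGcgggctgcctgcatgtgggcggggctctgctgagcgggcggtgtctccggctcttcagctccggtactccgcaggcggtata
Srebf2, chr7:115543127-115543306, plus strand: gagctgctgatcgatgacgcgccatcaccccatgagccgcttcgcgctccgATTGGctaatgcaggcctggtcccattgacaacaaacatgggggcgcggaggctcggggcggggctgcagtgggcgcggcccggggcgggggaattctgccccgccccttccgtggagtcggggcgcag
These windows held 5 boxes in Mvk, 4 in Nsdhl and 1 each in Sc5d and Srebf2. Of the 26 listed genes with a promoter entry, 19 held CCAAT on either strand in the 250 bases before the start, among them 12 of 15 synthesis genes. Each of these counts includes Hmgcs1, whose expression was not analysed here. Of all 33469 promoters, 34.0% held CCAAT in a window of the same length. The letters TCACNCCAC, the core of a classical sterol response element, were searched as an exact match in the same window. They were in 0 of the 26 and in 0.974% of all promoters, and variants of the element were not searched. The direct repeat element of the liver X receptors, searched as its exact consensus on both strands, was in 0 of the 26 and in 0.00299% of all promoters. Matches of these genes were thus to CCAAT alone, and a match is a description, not a bound site.

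The values are log2 RMA values, so that a difference of 1 is a doubling. Scatter was widest among the before NHD arrays, with an SD of 0.249 for the median probe set. It was 0.160 in the after NHD group, 0.139 in the control group and 0.0941 in the phenylephrine group. The nearest pair of all arrays came from 2 groups: before replicate 4 and after replicate 4 differed with an SD of 0.205 over probe sets. The next nearest pair, control replicates 1 and 3, differed with an SD of 0.241. The labels do not say whether these 2 samples shared plasma or culture, and whether both are labelled correctly was not settled here, which bears on every value of after against before NHD. Counts are therefore also given without both samples numbered 4. All 7 myocyte markers lay above the mean level of the median probe set (6.99), as did 7 of 9 fibroblast markers and 4 of 4 smooth muscle markers. Only 1 of 6 endothelial markers (Kdr) and 1 of 7 leukocyte markers (Cd68) lay above it. The summed fibroblast markers ranged from 10.32 to 13.33 log2 units before NHD and from 10.52 to 13.15 after NHD. They lay at 11.51 to 11.66 with control plasma and at 13.57 and 13.89 with phenylephrine. In such bulk samples, fewer cells of a type and less RNA per cell cannot be told apart.

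The synthesis enzymes moved together from array to array rather than only from group to group. After replicate 4 was the lowest of the 6 after NHD arrays for 16 of 17 enzymes, and before replicate 4 the lowest before NHD array for 10. These arrays lay on average 0.72 and 0.68 log2 units below the mean of each gene, and all 17 enzymes lay below that mean on both. Before replicates 1 and 6 were also low, by 0.41 and 0.39 on average. Before replicates 2 and 5 were high, by 0.43 and 0.44, and between them had the highest before NHD value for 15 of 17 enzymes. After replicates 1, 2, 5 and 6 were 0.46, 0.39, 0.31 and 0.15 above. The 3 control arrays lay within a narrow band, 0.20 to 0.24 below. With phenylephrine, replicate 2 was higher than replicate 1 for all 17 enzymes (0.50 and 0.16 above). The low rank of both arrays numbered 4 was not particular to synthesis. After and before replicate 4 were each lowest in their group for 4 of 4 sensing genes. They were lowest for 4 and 2 of 5 uptake and transport genes, and for 1 and 2 of 4 efflux genes. The share of all probe sets for which these arrays were lowest was not computed.

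The span of the enzymes from the lowest to the highest array of a group was wider with uremic plasma. A span grows with the number of arrays, so that groups of unlike size are not strictly comparable. For the median enzyme the span was 1.40 log2 units before NHD and 1.06 after NHD, over 6 arrays each. It was 0.18 with control plasma (3 arrays) and 0.31 with phenylephrine (2 arrays). The span over all probe sets was not computed. The widest span of an enzyme was that of Idi1, the isomerase of the isoprenoid building blocks, which ran from 8.19 to 11.23 before NHD and from 9.16 to 9.62 with control plasma. Before replicates 2, 4 and 5 had fibroblast sums of 10.32, 10.37 and 10.46, while replicate 4 was the lowest of them in synthesis and the others the highest. Before and after replicate 4 had the lowest summed endothelial markers of their groups (8.98 and 8.96), against 9.14 to 10.50 and 9.60 to 9.80 on the other arrays. The part of cell makeup in the pattern was not tested.

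**Figure D1:**
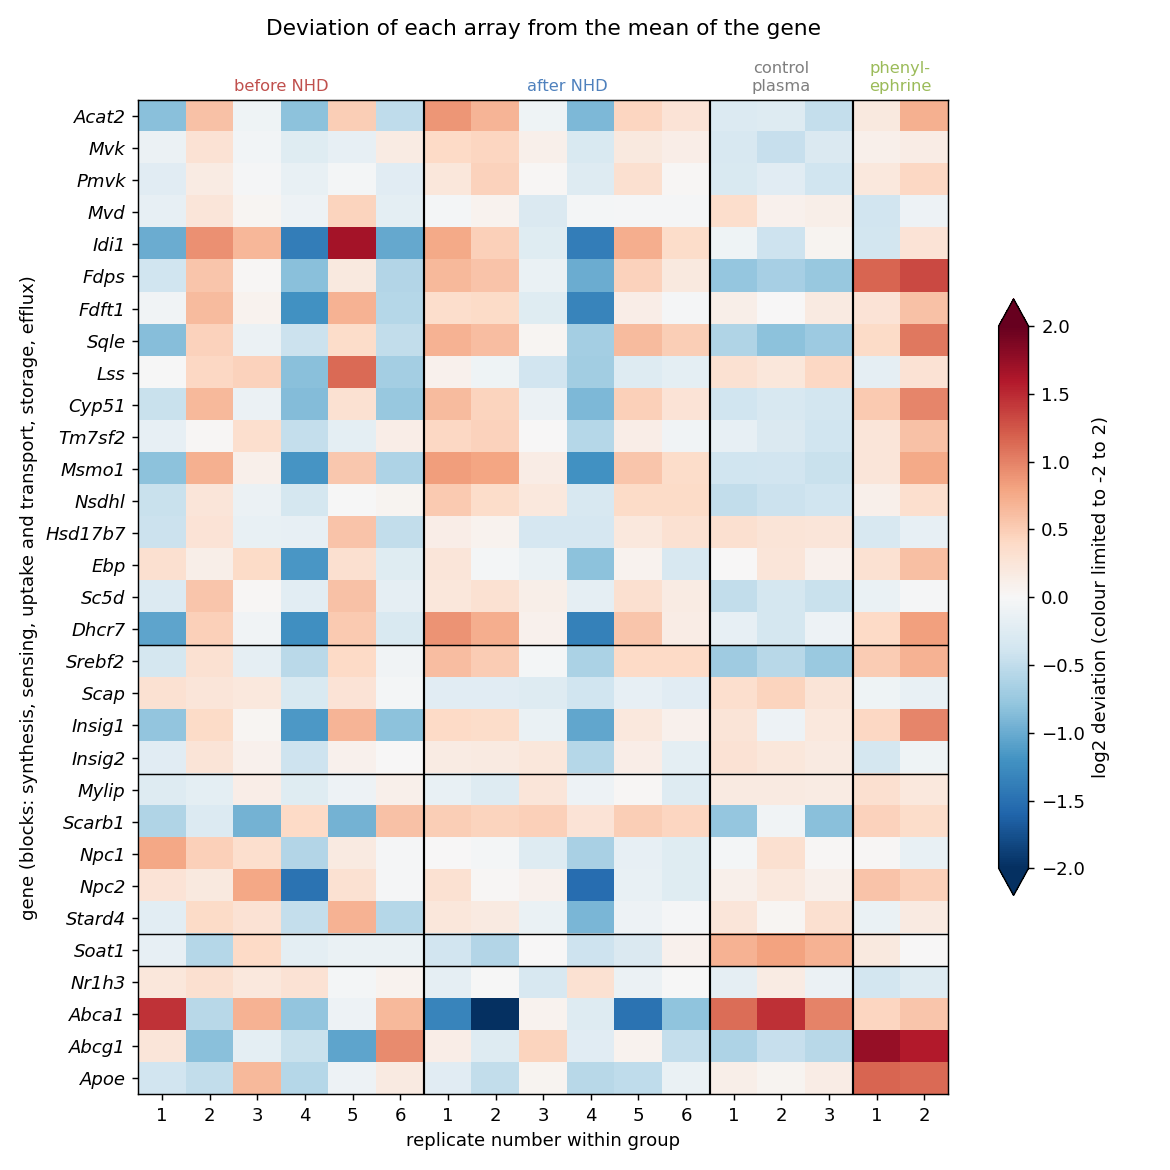
Heat map of the log2 deviation of each array (columns, by group and replicate number) from the mean of each of the 31 genes over 17 arrays (rows, in blocks by role). Red is above and blue below the mean, and before and after replicate 4 are blue for all 17 synthesis enzymes.

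Each comparison was tested in 1 fit of all arrays and adjusted over all 29214 probe sets, with adjusted p = 0.05 as the threshold. Between after and before NHD plasma, 0 of 31 genes passed with limma, and 6 had an unadjusted p under 0.05, while 0.397% of all probe sets passed (0.288% higher and 0.11% lower) and 18.5% had an unadjusted p under 0.05. Between before NHD and control plasma 1 of 31 passed, Soat1, which was lower, against 4.93% of all probe sets (2.88% higher and 2.05% lower) and 5.84% of all named genes (3.75% higher and 2.09% lower). Between after NHD and control plasma 10 of 31 passed, 7 higher and 3 lower, which is 32.3%. The background was 28.2% of all probe sets and 33.0% of all named genes, so that this share is that of genes in general. Between phenylephrine and control plasma 8 of 31 passed, 7 higher and 1 lower, which is 25.8% against 18.7% of probe sets (8.54% higher and 10.2% lower) and 23.6% of named genes. Without phenylephrine replicate 1 only Fdps and Abcg1 still passed in that comparison, and without replicate 2 only Abcg1, with Fdps at 0.0529. The median log2 differences of the 31 genes in these 4 comparisons were 0.07, 0.09, -0.01 and 0.38, beside -0.01, -0.06, -0.08 and -0.07 over all probe sets. The last 3 comparisons share the 3 control arrays.

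Without the samples numbered 4, after against before NHD gave 5 genes: Nsdhl (0.43, adjusted p = 0.0308) and Scarb1 (0.91, 0.0331) higher, and Abca1 (-1.56, 0.0234), Npc1 (-0.48, 0.0372) and Scap (-0.42, 0.00774) lower, each given as log2 difference and adjusted p. In that setting 9.16% of all probe sets passed. The other comparisons then gave 2, 13 and 12 genes, against 4.89%, 31.8% and 23.0% of probe sets. When the SD of the array was added to the model (the SD term), 3 of 31 genes passed between after NHD and control plasma, all lower (Scap, Soat1 and Abca1), against 10.3% of probe sets. Between before NHD and control plasma 0 genes then passed, against 0.00685% of probe sets, and 3 genes had an unadjusted p under 0.05 in limma, against 17.0% of probe sets. The array SD was 2.245 and 2.252 on control replicates 1 and 3, 2.318 on control replicate 2, and 2.316 to 2.340 after NHD. Leaving out control replicate 1 or 3 left 4 and 5 genes between after NHD and control plasma, and 0 and 0 between before NHD and control plasma, where 2 and 2 genes had an unadjusted p under 0.05 in limma.

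**Figure D2:**
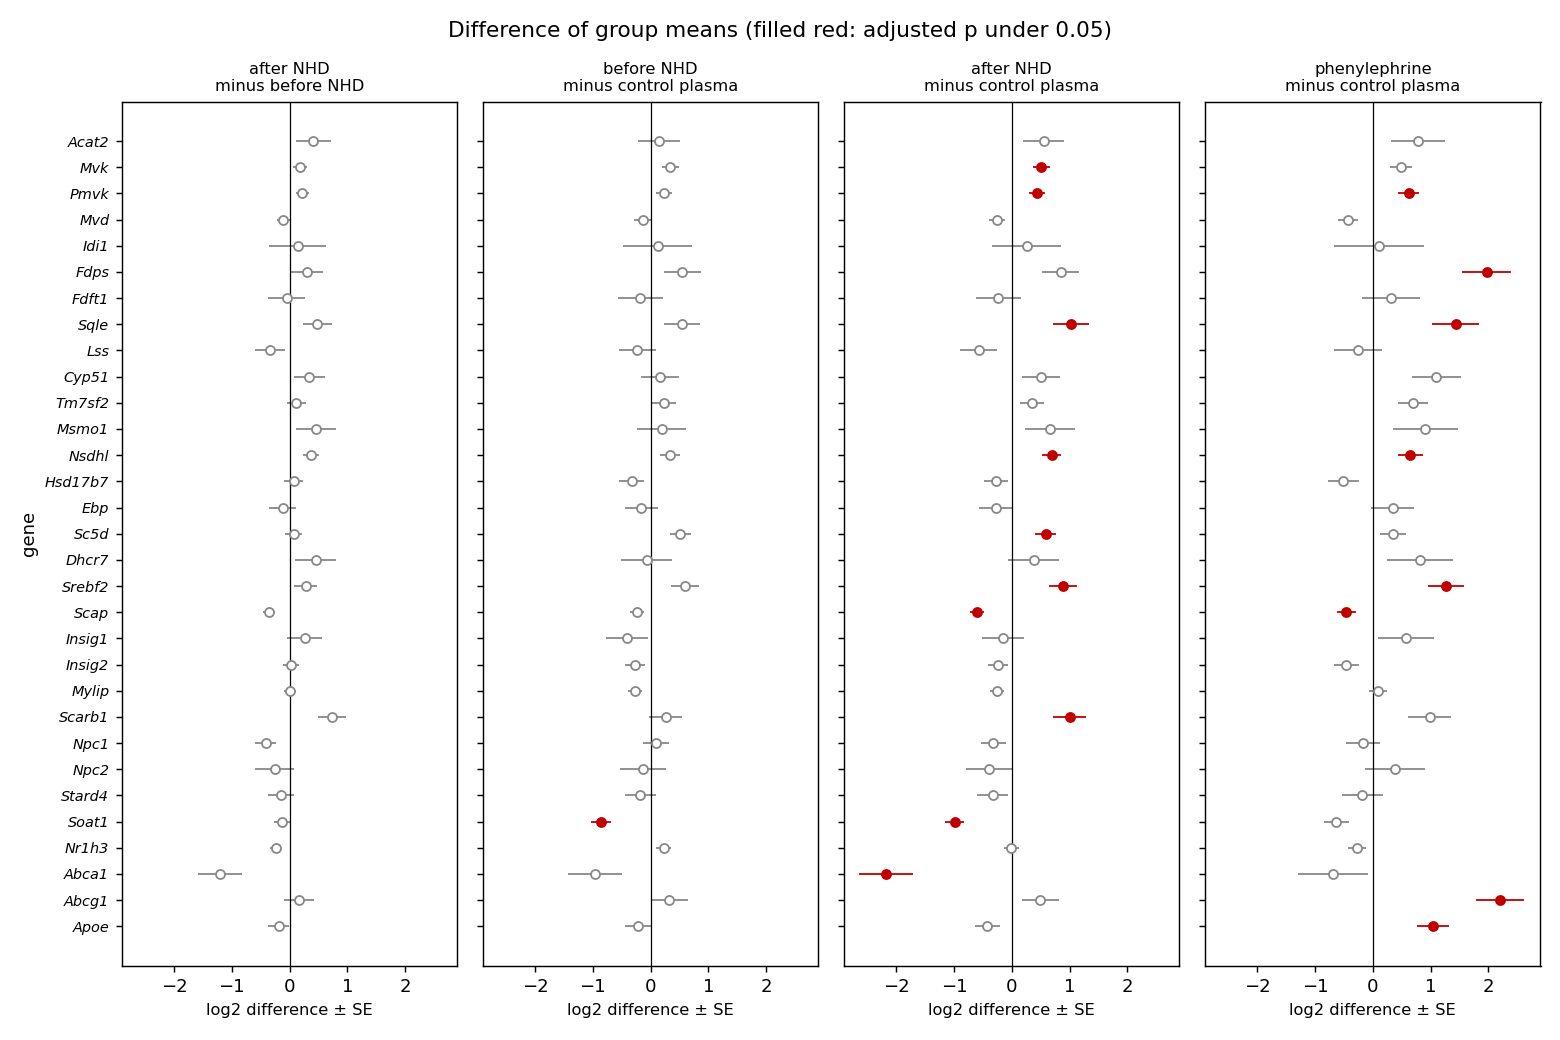
Difference of group means in log2 units with its standard error (horizontal axis) for the 31 genes (vertical axis) in the 4 comparisons. Filled red points passed the threshold, of which there are 0, 1, 10 and 8 from left to right.

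Among the 17 synthesis enzymes, 5 were higher after NHD than with control plasma and 0 were lower, which is 29.4% higher. The background was 12.9% of all probe sets higher and 15.3% lower, and 16.7% of named genes higher. In a separate limma fit of the brighter probe sets alone, where all 17 enzymes lie, 23.6% were higher. Fdps passed as well in that fit (adjusted p = 0.045), so its share is not set against the same count of enzymes. The median log2 difference of the 17 enzymes in the main fit was 0.44, and with the SD term 0 of them passed. Markers of several cell types differed in the same comparison. The myocyte markers Myh6, Tnni3, Myl2 and Ryr2, 4 of 7, were higher by 0.84, 0.77, 0.59 and 1.60, with summed levels of 16.00 to 16.16 after NHD and 15.78 to 15.84 with control plasma. The endothelial marker Kdr was higher by 1.58 and the smooth muscle marker Cnn1 lower (-1.16), while 0 of 9 fibroblast and 0 of 7 leukocyte markers passed in limma, with 0 and 1 of them under 0.05 before adjustment. The part of cell makeup in these results was not tested. Sqle encodes squalene epoxidase, a rate-limiting enzyme that oxidises squalene. It measured 8.09, 7.88 and 7.97 on the control arrays and 8.02 to 9.39 (median 9.25) after NHD, with 7.84 to 9.15 (median 8.42) before NHD and 9.07 and 9.75 with phenylephrine. After replicate 4, at 8.02, lay among the controls, and the other 5 after NHD arrays, at 8.73 or more, lay above them. Sqle rose by 1.02 ± 0.31 log2 units after NHD against control plasma (SE; adjusted p = 0.022) and by 1.43 ± 0.40 with phenylephrine (0.0201). The phenylephrine call was also lost without control replicate 3 (0.0521). The after NHD call was lost without any of the control arrays (0.0613 to 0.0713) and with the SD term (0.115), at differences of 0.97 to 1.07.

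Nsdhl encodes a dehydrogenase that removes methyl groups from carbon 4 of the sterol ring. It lay at 9.77, 9.84 and 9.86 with control plasma, and at 9.94 to 10.78 (median 10.63) after NHD, so that these groups did not overlap. Before NHD arrays ran from 9.81 to 10.50 and phenylephrine arrays were 10.36 and 10.60. Nsdhl rose by 0.69 ± 0.17 after NHD against control plasma (adjusted p = 0.00707) and by 0.65 ± 0.22 with phenylephrine (0.0476). The after NHD call was kept in 24 of 25 alternatives and lost with the SD term (0.0807). The phenylephrine call was kept in 14 of 25.

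Mvk and Pmvk phosphorylate mevalonate in successive steps. Mvk lay at 7.53 to 7.69 with control plasma, 7.74 to 8.28 before NHD, 7.68 to 8.41 after NHD, and 8.08 and 8.13 with phenylephrine. After replicate 4 (7.68) was the 1 uremic array that reached into the control range. Mvk rose by 0.51 ± 0.15 after NHD against control plasma (adjusted p = 0.0158), and its phenylephrine difference of 0.48 ± 0.19 did not pass (0.0895). Its after NHD call was lost without control replicate 1 or 2 (0.0512 and 0.0586) and with the SD term (0.109). Pmvk lay at 7.75 to 7.93 with control plasma, 7.89 to 8.62 after NHD, and 8.36 and 8.56 with phenylephrine, and at 7.93 to 8.31 before NHD. It rose by 0.44 ± 0.14 after NHD (adjusted p = 0.0233) and by 0.62 ± 0.18 with phenylephrine (0.0226), both against control plasma. Its phenylephrine call was lost without control replicate 1 or 3 (0.0573 and 0.0717). For Pmvk the after NHD call was lost without control replicate 1 or 3 (0.0768 and 0.102), after a second quantile normalization (0.0596) and with the SD term (0.123).

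Sc5d, which introduces a double bond late in the route, lay at 10.77, 10.91 and 10.81 with control plasma. It lay at 10.99 to 11.84 before NHD and at 11.08 to 11.58 after NHD, and all 12 uremic arrays were above the 3 controls. The increase was 0.59 ± 0.18 after NHD (adjusted p = 0.0236). Before NHD it was 0.51 ± 0.18, which did not pass (0.0992), and phenylephrine gave 11.12 and 11.24. For Sc5d the after NHD call was lost without control replicate 1 or 3 (0.0921 and 0.0789) and with the SD term (0.0865).

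Fdps makes farnesyl diphosphate, the branch point to sterols and to isoprenoid anchors. It measured 10.41, 10.52 and 10.43 with control plasma and 12.35 and 12.50 with phenylephrine, above every other array. Before NHD arrays ran from 10.34 to 11.74 (median 10.99) and after NHD arrays from 10.19 to 11.83 (median 11.51). Fdps rose by 1.97 ± 0.42 with phenylephrine (adjusted p = 0.00474). The after NHD difference from control plasma, 0.85 ± 0.32, did not pass (0.0599) but passed without the samples numbered 4 (1.08, adjusted p = 0.00252).

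Of all 17 synthesis enzymes, 13 were higher and 2 lower on both phenylephrine arrays than on the 3 control arrays. The share of all probe sets that separate in this way was not computed, so these counts are not a result about the enzymes in particular. Cyp51 (lanosterol demethylase) and Tm7sf2 (a sterol reductase) were among the 13. Cyp51 lay at 10.14 to 10.22 with control plasma and at 11.06 and 11.51 with phenylephrine, while before and after NHD arrays ran from 9.68 to 11.19 and from 9.64 to 11.17. Tm7sf2 lay at 6.83 to 7.06 with control plasma and at 7.47 and 7.82 with phenylephrine, and at 6.76 to 7.56 and 6.66 to 7.69 before and after NHD. Their phenylephrine differences, 1.10 ± 0.43 and 0.70 ± 0.26, did not pass (adjusted p = 0.0848 and 0.0711). Mvd, which makes isopentenyl diphosphate, lay at 8.39 to 8.66 with control plasma, 8.11 to 8.75 before NHD, 8.01 to 8.37 after NHD, and 7.93 and 8.21 with phenylephrine. All 8 after NHD and phenylephrine arrays were below the 3 controls for Mvd, with differences that did not pass (-0.25 ± 0.14 and -0.43 ± 0.18). The 8 remaining enzymes, Acat2, Idi1, Fdft1, Lss, Msmo1, Hsd17b7, Ebp and Dhcr7, passed in no comparison. Acat2, Fdft1, Msmo1, Ebp and Dhcr7 were also higher on both phenylephrine arrays than on the controls, Hsd17b7 was lower, and Idi1 and Lss overlapped. Log2 differences of these 8 enzymes between after NHD and control plasma ran from -0.57 (Lss) to 0.66 (Msmo1).

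**Figure D3:**
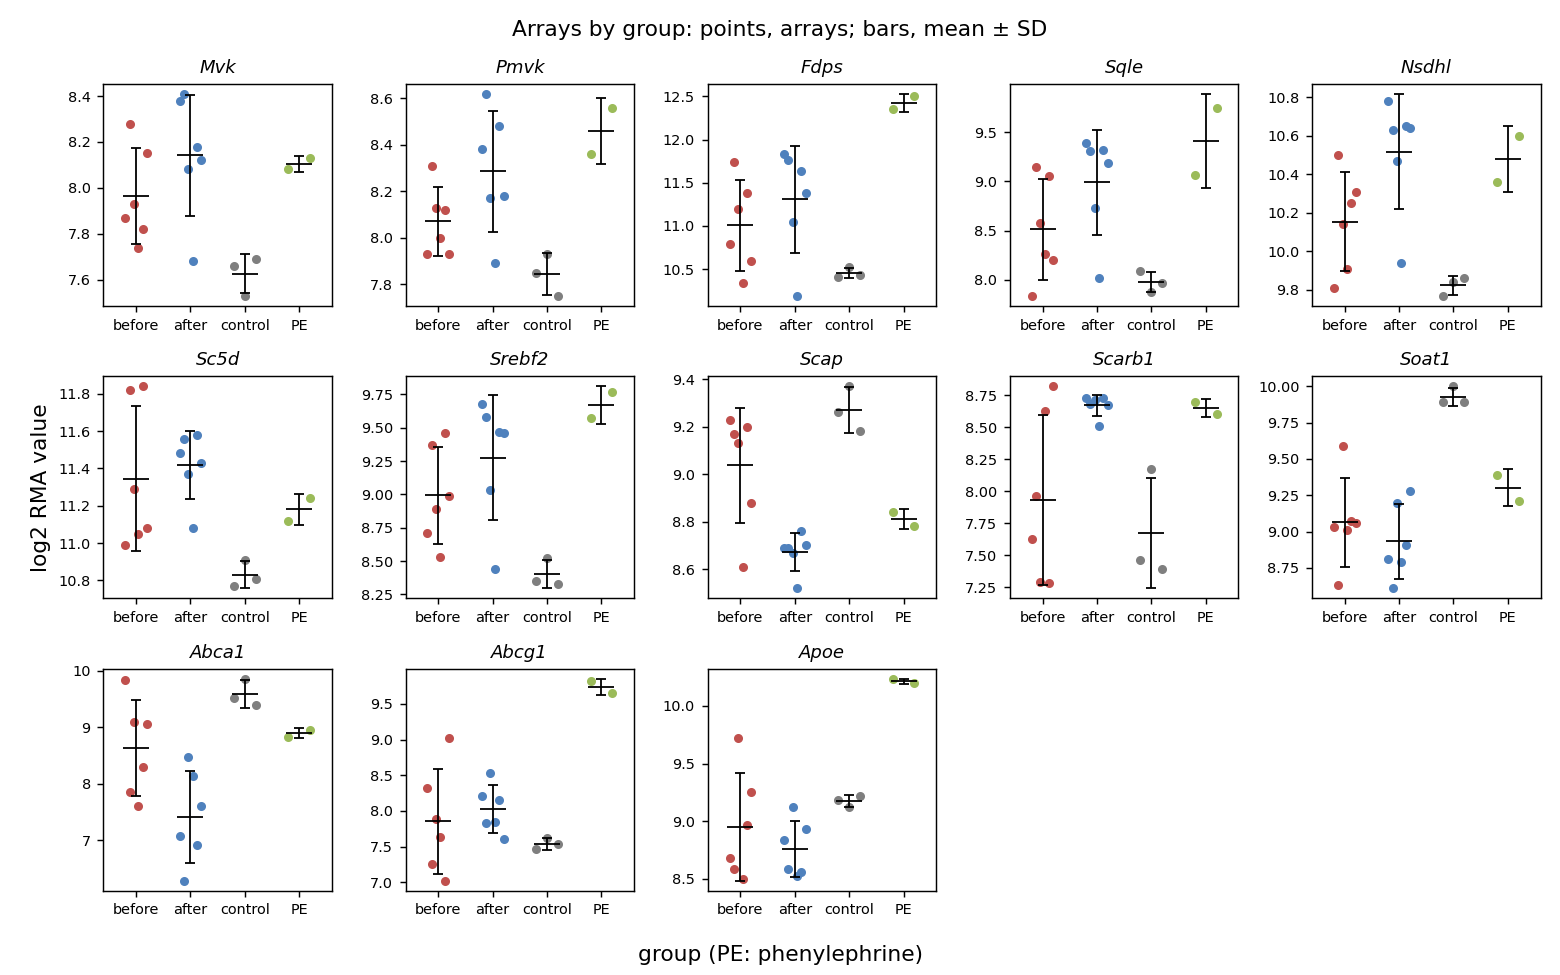
Log2 RMA values of the 13 genes that passed in at least 1 comparison, with a point for each array by group (PE, phenylephrine) and bars for mean and SD. Scales differ between panels. Control and after NHD arrays do not overlap for Nsdhl, Sc5d, Scap, Scarb1, Soat1 and Abca1.

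In sterol sensing, Srebf2 was higher and Scap lower in both comparisons that passed. Srebf2 lay at 8.35, 8.52 and 8.33 with control plasma and at 9.57 and 9.77 with phenylephrine. It ran from 8.53 to 9.46 (median 8.94) before NHD and from 8.44 to 9.68 (median 9.47) after NHD, with after replicate 4 at 8.44 alone within the control range. Srebf2 rose by 0.88 ± 0.24 after NHD (adjusted p = 0.0133) and by 1.27 ± 0.31 with phenylephrine (0.0106). The after NHD call was lost without control replicate 1 or 3 (0.0578 and 0.0555) and with the SD term (0.0774). Before NHD the difference of 0.59 ± 0.24 did not pass (0.143) but did without the samples numbered 4 (0.69, adjusted p = 0.040).

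Scap lay at 9.26, 9.37 and 9.18 with control plasma and at 8.52 to 8.76 after NHD, and these groups did not overlap. Before NHD it ran from 8.61 to 9.23 (median 9.15), and phenylephrine gave 8.84 and 8.78. Scap fell by 0.60 ± 0.12 after NHD against control plasma (adjusted p = 0.00212), a call kept in all 25 alternatives. With phenylephrine it fell by 0.46 ± 0.16 (0.049), and 10 of 25 alternatives kept that call. Between after and before NHD the difference of -0.36 ± 0.10 did not pass (0.0845).

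Insig1 and Insig2, which retain Scap, passed in no comparison. Insig1 lay at 10.73 to 11.09 with control plasma, 9.68 to 11.50 before NHD, 9.79 to 11.22 after NHD, and 11.24 and 11.80 with phenylephrine. Its second, dimmer probe set (mean 9.80, against 10.82) differed in the same direction in all 4 comparisons. Insig2 lay at 10.11 to 10.22 with control plasma, 9.51 to 10.19 before NHD, 9.36 to 10.16 after NHD, and 9.57 and 9.84 with phenylephrine.

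Of the 5 genes of uptake and transport inside the cell, Scarb1, the receptor for high density lipoprotein, was the 1 that passed. It was tight after NHD, at 8.51 to 8.73, and with phenylephrine, at 8.70 and 8.60. With control plasma it measured 7.46, 8.17 and 7.39, and before NHD 7.28 to 8.82 (median 7.79). Before replicates 4 and 6, at 8.63 and 8.82, lay with the after NHD arrays, and the other before NHD arrays lay within or just below the span of the controls. Scarb1 rose by 1.0 ± 0.29 after NHD against control plasma (adjusted p = 0.0176). With the SD term the difference was 0.50 and did not pass (0.247), and the call was also lost without control replicate 1 or 3 (0.0896 and 0.0937). The phenylephrine difference, 0.98 ± 0.37, did not pass (0.0802).

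Npc1 and Npc2 release cholesterol from lysosomes. Npc1 ran from 8.51 to 9.87 before NHD, 8.45 to 9.10 after NHD and 9.05 to 9.42 with control plasma, with 9.12 and 8.95 for phenylephrine. Its difference between after and before NHD, -0.41 ± 0.18, did not pass (adjusted p = 0.235). Npc2 was at 9.23 and 9.17 on before and after replicate 4, and at 10.46 to 11.48 on the other 15 arrays. Mylip, a ubiquitin ligase that marks lipoprotein receptors for degradation, had a mean level below that of the median probe set. It lay at 6.65 to 6.66 with control plasma, 6.23 to 6.62 before NHD, 6.22 to 6.72 after NHD, and 6.80 and 6.70 with phenylephrine. Stard4, a cytosolic sterol carrier, lay at 7.94 to 8.22 with control plasma, 7.33 to 8.59 before NHD, 6.98 to 8.12 after NHD, and 7.77 and 8.07 with phenylephrine.

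Soat1, which esterifies cholesterol for storage, was lower with both uremic plasmas. It measured 9.89, 10.00 and 9.89 on the control arrays, 8.63 to 9.59 (median 9.04) before NHD and 8.61 to 9.28 (median 8.86) after NHD. All 12 uremic arrays were below the 3 controls, as were the phenylephrine arrays at 9.39 and 9.21. Soat1 fell by 0.86 ± 0.17 before NHD (adjusted p = 0.0208) and by 0.99 ± 0.17 after NHD (0.000863), with the 3 control arrays shared. Before NHD, Myh6 (0.67), Ryr2 (1.17) and Kdr (1.79) were also past the threshold, as higher. Their calls were lost in the fit of these groups alone, where no probe set passed. The after NHD call of Soat1 was kept in all 25 alternatives. The before NHD call was lost in 4: the fit of these groups alone (0.199), the SD term (0.0685), and without control replicate 1 or 3 (0.14 and 0.126). The phenylephrine difference of -0.63 ± 0.22 did not pass (0.0571).

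Abca1, the exporter of cholesterol to apolipoprotein A-I, had the largest difference of the 31 genes between after NHD and control plasma. It measured 9.51, 9.86 and 9.39 on the control arrays and 6.28 to 8.47 (median 7.34) after NHD, so that all 6 after NHD arrays were below the controls. Before NHD it ran from 7.61 to 9.84 (median 8.68), with replicate 1 at the level of the controls, and phenylephrine gave 8.83 and 8.96. Abca1 fell by 2.17 ± 0.47 after NHD against control plasma (adjusted p = 0.00314), a call kept in all 25 alternatives. Its differences of -0.96 ± 0.47 before NHD against control plasma and of -1.21 ± 0.38 after against before NHD did not pass (0.212 and 0.111).

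Within the after NHD group, Abca1 was low where the synthesis enzymes were high. After replicates 1, 2 and 5, with Sqle at 9.39, 9.31 and 9.32, had Abca1 at 7.08, 6.28 and 6.92. After replicates 3 and 4, with Sqle at 8.73 and 8.02, had Abca1 at 8.47 and 8.14. Before NHD, replicate 1 had the lowest Sqle (7.84) and the highest Abca1 (9.84), and replicates 2 and 5 had the highest Sqle (9.15 and 9.06) with Abca1 at 7.85 and 8.30. Before replicate 4 went against this order. It had Sqle at 8.26, was the lowest before NHD array for 10 of 17 synthesis enzymes, and had the lowest Abca1 of its group (7.61). The phenylephrine arrays were high in Sqle with Abca1 at 8.83 and 8.96. This order is a description of 17 arrays, noticed in these values.

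**Figure D4:**
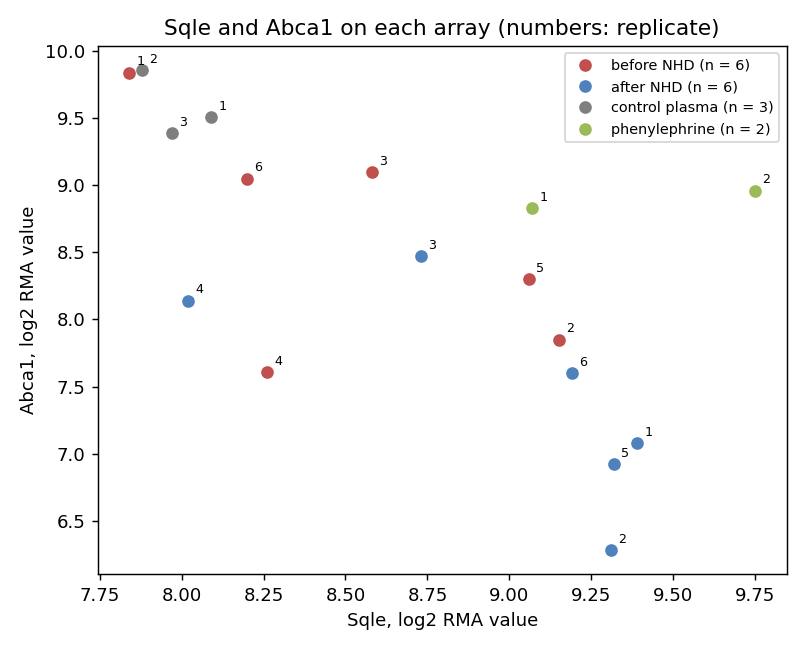
Log2 RMA values of Sqle (horizontal) and Abca1 (vertical), 1 point per array, coloured by group and numbered by replicate. After NHD replicates 1, 2, 5 and 6 lie lowest in Abca1 with Sqle above 9, and the 3 control arrays and before NHD replicate 1 lie highest, with Sqle near 8.

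Abcg1, which exports cholesterol to high density lipoprotein, and Apoe, a lipoprotein component that accepts it, were higher with phenylephrine. Abcg1 measured 7.46, 7.62 and 7.53 with control plasma and 9.82 and 9.66 with phenylephrine, above all other arrays. It ran from 7.02 to 9.02 before NHD and from 7.60 to 8.53 after NHD. Abcg1 rose by 2.20 ± 0.42 (adjusted p = 0.00237), a call kept in all 25 alternatives. Apoe lay at 9.18, 9.12 and 9.22 with control plasma and at 10.23 and 10.20 with phenylephrine, and rose by 1.04 ± 0.28 (0.0168). That call was lost without either phenylephrine array (0.107 and 0.0969). Before and after NHD, Apoe ran from 8.50 to 9.72 and from 8.52 to 9.12.

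All 9 fibroblast markers were higher on both phenylephrine arrays than on the controls, with a median difference of 1.80, and 0 of them passed in limma, with 3 under 0.05 before adjustment. Of the 31 listed genes, 20 were likewise higher and 7 lower on both phenylephrine arrays than on all controls. With 2 against 3 arrays, the share of all probe sets that separate so was not computed. The counts are thus not a result about the listed genes in particular. Of 7 leukocyte markers, 5 were higher and 1 lower on both phenylephrine arrays, with a summed level of 9.72 and 9.79 against 9.20 to 9.36. In limma 0 of the 7 passed, with 1 under 0.05 before adjustment. Itgam was the lower one (difference -0.13), and Csf1r overlapped (0.12). Lyz2 lay at 7.79 and 7.87 with phenylephrine against 6.09 to 6.71, Cd68 at 7.90 and 7.97 against 7.52 to 7.81, and Ptprc, dimmer than the median probe set, at 5.52 and 5.58 against 5.05 to 5.37. The endothelial markers Cdh5 (0.51, adjusted p = 0.00547) and Kdr (1.89, adjusted p = 0.0458) and the myocyte marker Ryr2 (1.24, adjusted p = 0.0273) passed as higher and the smooth muscle marker Acta2 (-0.40, adjusted p = 0.0263) as lower. All 4 smooth muscle markers were lower on both phenylephrine arrays than on the controls. Within the before NHD group the arrays with the highest fibroblast sums, replicates 3 and 6 (13.30 and 13.33), were also the highest in Apoe (9.72 and 9.25) and in the summed leukocyte markers (10.07 and 9.66). Abcg1 followed that order only in part, at 7.88 and 9.02 on these arrays and 8.32 on before replicate 1 (fibroblast sum 10.91). After replicates 3 and 6, with sums of 13.15 and 12.81, had the highest and lowest Abcg1 of their group (8.53 and 7.60). The part of these cells in the Abcg1 and Apoe results was not tested. Nr1h3, the liver X receptor alpha, passed in no comparison, at 6.75 to 7.09 with control plasma, 6.89 to 7.25 before NHD, 6.61 to 7.23 after NHD, and 6.55 and 6.66 with phenylephrine.

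Of 28 further genes of the pathway, 21 were measured. After NHD against control plasma 3 of them were higher and 3 lower (28.6%), and with phenylephrine 3 higher and 2 lower (23.8%), shares near those of all genes. Those that were lower after NHD included both proteases that release SREBP2, Mbtps1 (-0.61 ± 0.17, adjusted p = 0.0125) and Mbtps2 (-1.03 ± 0.14, adjusted p = 0.000416). Mbtps2 lay at 10.64 to 10.69 with control plasma, 9.73 to 10.40 before NHD, 9.41 to 9.81 after NHD, and 9.56 and 9.67 with phenylephrine, with the controls above all other arrays. It fell also before NHD (-0.60 ± 0.14, adjusted p = 0.0284) and with phenylephrine (-1.05 ± 0.18, adjusted p = 0.00116). The before NHD call was lost in the fit of the before NHD and control groups alone, where no probe set passed. Calls of these further genes were not otherwise followed under the other settings. Nr1h2, the liver X receptor beta, was lower after NHD (-0.39 ± 0.10, adjusted p = 0.00732).

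Higher after NHD were Lrpap1, a chaperone of lipoprotein receptors (1.64 ± 0.36, adjusted p = 0.00352), Snx17, which recycles such receptors (1.07 ± 0.19, adjusted p = 0.000958), and Erlin2, which takes part in the turnover of sterol-regulated membrane proteins (0.64 ± 0.15, adjusted p = 0.0049). Snx17 also rose before NHD (0.75 ± 0.19, adjusted p = 0.0361), with overlapping groups and a call likewise lost in the fit of those groups alone. Lrpap1 and Snx17 rose with phenylephrine, by 2.14 ± 0.47 and 1.0 ± 0.24. With phenylephrine, Lipa, the lysosomal lipase that frees cholesterol from its esters, fell by 0.80 ± 0.22 (adjusted p = 0.0213), and Gramd1a, a sterol transporter at membrane contacts, rose by 0.58 ± 0.14 (0.00862).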

How the data were processed

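The deposited table holds log2 expression values that the authors made with RMA, per the submitters' processing notes, with no version in the sources used here. RMA equalises the arrays by quantile normalization and so hides shifts common to most genes. Values ran from 1.28 to 14.29 on the 17 arrays, which shows a log2 scale. Names came from the platform annotation (15310 probe sets with 1 symbol, 323 with several, 13581 with none here), of which 15279 were matched by gene ID to a RefSeq gene table. A member was its brightest probe set with 1 symbol.

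A linear model with a mean for each of the 4 groups was fitted to all 29214 probe sets over 17 arrays (lmFit and eBayes of limma 3.58.1 in R 4.3.3), leaving 13 residual degrees of freedom beside 3.32 of the prior. Benjamini-Hochberg adjustment ran over every probe set, on two-sided p. The SE pools the unequal spread of the groups, so that comparisons with phenylephrine rest largely on the other groups. Same-numbered before and after arrays were checked for pairing: correlations of their deviations from group means were 0.099, 0.422, 0.599, 0.571, -0.025 and 0.251, and the numbers were not taken as pairs. In the titles of 2 before NHD samples there are 2 replicate numbers, of which the final one was taken. The number of arrays limits the precision.

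Members, lists, motifs and alternatives were chosen with earlier results of these data known. Values of every group are given for members past the threshold in any comparison and for up to 3 further members of each role with the smallest p.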

Additional observations from a re-analysis of the deposited data

Results flagged for a closer look

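Dixon's test was used in the before and after NHD groups (62 tests, 31 genes in each). It sought single arrays that lay far from the rest of their group relative to the range of that group. There were 11 such values, 17.7% of the tests, where chance gives about 1 in 20. The share over all probe sets was not computed, so the count is not a result about these genes in particular. Over all probe sets, after replicate 4 differed from the other after NHD arrays with an SD of 0.387 to 0.484. Those other arrays differed from each other with an SD of 0.242 to 0.36. Of the 11 values, 9 belonged to after replicate 4, which was the lowest of its group in each: Fdft1 (10.42), Msmo1 (9.53), Nsdhl (9.94), Dhcr7 (6.91), Scap (8.52), Insig1 (9.79), Scarb1 (8.51), Npc2 (9.17) and Stard4 (6.98), all in log2 units. For Scarb1 and Scap the gap was small, with the next lowest after NHD array at 8.67 in both. The genes vary together over arrays, so that these 9 values are not independent. Before replicate 4 was far below its group for Npc2 (9.23), and after replicate 3 for Mvd (8.01). Fibroblast marker sums on before and after replicate 4 were 10.37 and 10.52 log2 units, with group medians of 10.69 and 12.26. The part of the cell makeup in these values was not tested.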

How the results depend on the processing

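Each comparison was repeated under 8 other settings and with each array left out in turn. The log2 differences followed were, beside those of Insig1, the ones with an unadjusted p under 0.05 in the main limma fit or a call in an alternative. None changed direction, which such a choice makes likely in advance. Counts below are of listed genes past the threshold, then of probe sets. After against before NHD (0 and 116) gave 1 and 316 with a replicate block, 5 and 2677 without both samples numbered 4, 0 probe sets (4614 at an unadjusted p under 0.05) in a limma fit of the 2 groups alone, 393 on the brighter probe sets and 65 with the SD term. Before NHD against control (1 and 1439) gave 0 and 0 in the fit of these groups alone (4 and 4831 at an unadjusted p under 0.05), 5 and 3329 with the block, 2 genes without both samples numbered 4, and 0 and 2 with the SD term. After NHD against control (10 and 8238) gave 3 and 3015 with the SD term, and 5005 with 1 probe set per gene, where fewer features were tested. Phenylephrine against control (8 and 5471) gave 21 and 9072 in the fit of these groups alone, whose own spread is small. Leaving out 1 array gave, in the same order of comparisons, 0 to 4, 0 to 1, 4 to 12 and 1 to 11 genes, and 0 to 2690, 0 to 5101, 4547 to 8862 and 1621 to 6330 probe sets. Between after and before NHD, 0 probe sets passed without any one of before replicates 1 to 3 or of after replicates 1, 2, 3, 5 and 6 (4293 to 4916 at an unadjusted p under 0.05 in limma), 641 without after replicate 4, and 2648 and 2690 without before replicate 4 or 6. The low end came without control replicate 1 or 3 for the comparisons of uremic with control plasma, and without a phenylephrine array for the last (2 and 1 genes), and the 5101 probe sets came without before replicate 5. Causes of these shifts were not tested. With the block, Scap passed between after and before NHD (adjusted p = 0.0493), Fdps, Mvk, Sc5d and Srebf2 passed between before NHD and control, Fdps, Cyp51, Msmo1 and Tm7sf2 (0.00287, 0.036, 0.0252 and 0.0306) were added between after NHD and control (14 genes), and Cyp51, Tm7sf2 and Insig2 (0.0228, 0.0299 and 0.0413) with phenylephrine (11 genes). The numbers are not shown to pair the samples: of 6 before NHD arrays, 3 correlated best with the after NHD array of their own number. The block also grouped control and phenylephrine arrays with uremic arrays of the same number. The labels do not give that link and it was not checked, so the calls gained with the block rest on it.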
